A study of Homo sapiens and Mus musculus with 36 samples.

Results

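The genes described here encode the receptor chains of the 3 interferon types and the Janus kinases bound to them. They are IFNGR1, IFNGR2, IFNAR1, IFNAR2, IFNLR1, IL10RB, JAK1, JAK2 and TYK2 in human cells, and the title-case symbols in mouse cells. Members were chosen by symbol, and all 9 were listed in every file, of 26457 symbols in the HuH-7 guide files, 15899 in the HuH-7 drug files and 22673 in the mouse files. RNA sequencing counts were taken from 36 libraries in 17 groups of 4 tumour lines. The human line was HuH-7, from a hepatocellular carcinoma. The mouse lines were Hepa1-6 and Hep53.4, of liver cancer, and LLC, of lung cancer. In each line DOT1L, the methyltransferase of histone H3 lysine 79, was targeted with the guides sg1 and sg2, and cells with the guide sgNeg2, which the labels call wild type, were the comparison. HuH-7 guide cells were sequenced with and without an interferon labelled IFN, which gives 5 settings of knockout against sgNeg2, each with 2 libraries per guide. HuH-7 cells were also treated with EPZ-5676, a DOT1L inhibitor also known as pinometostat, for 7 days or with DMSO, with 3 libraries each. All cells grew in the same serum-containing medium. The labels do not say whether a guide stands for a clone or a pool, whether replicates are separate cultures, which interferon was given, or its dose and time. P-values therefore measure the spread between these libraries, which may be technical.

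Interferons signal through pairs of receptor chains. Interferon-gamma is bound by IFNGR1, which carries JAK1, and the signal also needs IFNGR2, which carries JAK2. The type I interferons use IFNAR1 with TYK2 and IFNAR2 with JAK1. The interferon-lambdas use IFNLR1 with JAK1 together with IL10RB and TYK2, and IL10RB also serves interleukin-10 and interleukin-22. The kinases phosphorylate STAT proteins, which bind GAS elements as dimers or, with IRF9, interferon-stimulated response elements. In the liver, hepatocytes are a known target of interferon-lambda, whose receptor is restricted to few cell types.

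Of the 9 human genes, 4 lie side by side on chromosome 21 in GENCODE release 29 (GRCh38), each on the plus strand. IFNAR2 spans chr21:33229901-33265675, IL10RB chr21:33266358-33310187, IFNAR1 chr21:33324477-33359862 and IFNGR2 chr21:33402896-33479348. The others are spread over the genome, with IFNGR1 at chr6:137197484-137219449, IFNLR1 at chr1:24154157-24187959, JAK1 at chr1:64833229-64966504 and TYK2 at chr19:10350529-10380676 on the minus strand, and JAK2 at chr9:4984390-5128183 on the plus strand. Counts of some members can be shared with neighbours, since the strand setting of the counting is not given. Exons of IFNAR2 share 2038 bases and those of IL10RB 1732 bases with the read-through gene AP000295.1 on the same strand. IFNAR2 also shares 1803 bases with the antisense gene IL10RB-DT, IFNGR2 shares 380 bases with TMEM50B on the other strand, and JAK1 shares 4 bases with RAVER2. Values of IFNAR2, IL10RB and IFNGR2 are uncertain to that extent.

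Promoter windows from RefSeq (GRCh38.p14), each spanning an annotated transcription start, were matched for 8 of 9 members, all but IFNAR2, and searched on both strands for the letters TTCNNNGAA, a GAS element, and GAAANNGAA, the core of an interferon-stimulated response element. The 2 motifs differ in their letters and can overlap. JAK2 had 4 windows, JAK1 3, IFNGR1 and IFNAR1 2 each, and the other members 1 each. TTCNNNGAA was held by the single windows of IFNLR1 and IL10RB, 2 of these 8 members, and by 7.66% of 35116 windows of that length. That share counts windows and not members, so it is not on the same footing as 2 of 8. GAAANNGAA was in no window of these 8 members and in 8.11% of all windows. A match is a description of letters and not a binding site. The 3 windows shown are those of the 2 chains of the interferon-lambda receptor, and of IFNGR2, the member with the largest difference between interferon-treated and untreated libraries. Each reads 5′ to 3′ on the gene's strand, with TTCNNNGAA in capitals where present. The IFNLR1 window is chr1:24187240-24187539 on the minus strand, that of IL10RB chr21:33266117-33266416 and that of IFNGR2 chr21:33403163-33403462, both on the plus strand.
IFNLR1: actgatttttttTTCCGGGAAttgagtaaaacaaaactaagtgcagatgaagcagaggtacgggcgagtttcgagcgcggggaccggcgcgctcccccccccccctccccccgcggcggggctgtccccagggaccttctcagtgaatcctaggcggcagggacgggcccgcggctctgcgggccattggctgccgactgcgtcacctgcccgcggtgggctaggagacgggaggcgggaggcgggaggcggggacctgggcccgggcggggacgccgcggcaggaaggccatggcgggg
IL10RB: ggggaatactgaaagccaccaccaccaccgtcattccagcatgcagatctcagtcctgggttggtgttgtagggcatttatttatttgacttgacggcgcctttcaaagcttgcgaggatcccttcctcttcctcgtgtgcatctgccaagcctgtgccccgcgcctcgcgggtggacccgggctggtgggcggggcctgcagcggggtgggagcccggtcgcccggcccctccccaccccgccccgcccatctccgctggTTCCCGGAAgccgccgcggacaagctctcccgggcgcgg
IFNGR2: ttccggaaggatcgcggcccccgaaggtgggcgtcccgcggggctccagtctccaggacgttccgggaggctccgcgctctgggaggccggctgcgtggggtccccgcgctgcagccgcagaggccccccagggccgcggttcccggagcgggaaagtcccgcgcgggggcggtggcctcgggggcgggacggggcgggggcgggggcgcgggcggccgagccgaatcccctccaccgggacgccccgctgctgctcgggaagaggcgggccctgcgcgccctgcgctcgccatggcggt
The match in IFNLR1 starts at position -238 from the annotated start, and that in IL10RB at position 11, counting the start as 0.

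Libraries held 19580588 to 22649969 counts in untreated HuH-7 guide cells, 47594968 to 61227426 with IFN, 48912627 to 58628528 in the drug set and 42637155 to 59686358 in mouse cells. DOT1L itself was lower in every edited library. Levels are given in CPM, the read count scaled to library size by TMM. DOT1L was at 32.1 to 40.4 CPM in knockout and 73.1 to 75.4 in sgNeg2 HuH-7 cells, and 42.5 to 66.8 in knockout and 108 to 109 in sgNeg2 cells with IFN. Dot1l was at 14.3 to 16.6 in knockout and 41.4 to 45.7 in sgNeg2 Hepa1-6 cells, 11.5 to 16.4 in knockout and 23.0 to 23.7 in sgNeg2 Hep53.4 cells, and 28.5 to 32.0 in knockout and 57.7 to 64.5 in sgNeg2 LLC cells. EPZ-5676, which blocks the enzyme, left it at 47.6 to 51.1 CPM against 51.8 to 54.5 CPM with DMSO. Of 15 hepatocyte markers 15 were above 1 CPM in HuH-7. In sgNeg2 cells, 9 of 14 were in Hepa1-6 and 7 of 14 in Hep53.4, where Fgb and Ttr were at 0 and Alb averaged 1.35 CPM. Of the 14 in Hep53.4, 4 were at 0 and 5 passed 10 CPM. The hepatocyte sum was 1115 to 1128 CPM in sgNeg2 Hep53.4 and 17501 to 17652 CPM in sgNeg2 Hepa1-6 cells. In LLC 2 of 14 lung epithelial markers passed 1 CPM, with Sftpc, Sftpa1 and Nkx2-1 at 0. In sgNeg2 cells of the liver lines 4 of 14 passed in Hepa1-6 and 4 of 14 in Hep53.4. The list summed to 5.01 to 6.08 CPM in sgNeg2 LLC, 3714 to 3810 CPM in Hepa1-6 and 5427 to 5456 CPM in Hep53.4 cells. It does not set lung from liver here and cannot decide the lung label of LLC either way.

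Replicates of 2 groups stood apart from each other more than those of the other groups. The chi-square per degree of freedom between replicates was 62.6 for Hepa1-6 sg1 and 24.7 for untreated HuH-7 sg2, and 2.81 to 8.64 elsewhere. Without HuH-7 sg2 replicate 2, IFNGR1 (0.80), IFNLR1 (0.53) and JAK2 (0.82) were still called higher in knockout, and without sg2 replicate 1 IFNLR1 was not (0.45, adjusted p = 0.0875). Without Hepa1-6 sg1 replicate 1 or 2, the knockout calls of Jak1 (-0.27 and -0.24), Jak2 (0.13 and 0.14) and Tyk2 (-0.36 and -0.36) remained, Ifngr2 was called as well (0.18 and 0.17), and Ifnar2 was called without replicate 1 (-0.14) and not without replicate 2 (-0.13).

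In HuH-7, the 9 transcripts differed over a wide range once counts were set per kilobase of exons. In untreated sgNeg2 cells JAK1 was highest, at 23.8 CPM per kilobase, followed by IFNAR2 at 15.5, IFNGR1 at 10.7, IFNAR1 at 9.88, TYK2 at 6.27, IL10RB at 5.28, JAK2 at 3.95, IFNLR1 at 2.08 and IFNGR2 at 0.593. IFNGR1 and IFNAR1 lay closest to each other. The order of the means was the same with DMSO, with JAK2 at 1.92 and IFNLR1 at 1.89 nearly level. There JAK1 was at 22.7 CPM per kilobase, IFNGR1 at 13.7 and IFNGR2 at 0.658. IFNGR2 was thus the scarcest transcript of the members in both sets. It gave 40 and 42 counts in the sgNeg2 libraries, and per kilobase it was 0.0556 of IFNGR1.

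**Figure D1:**
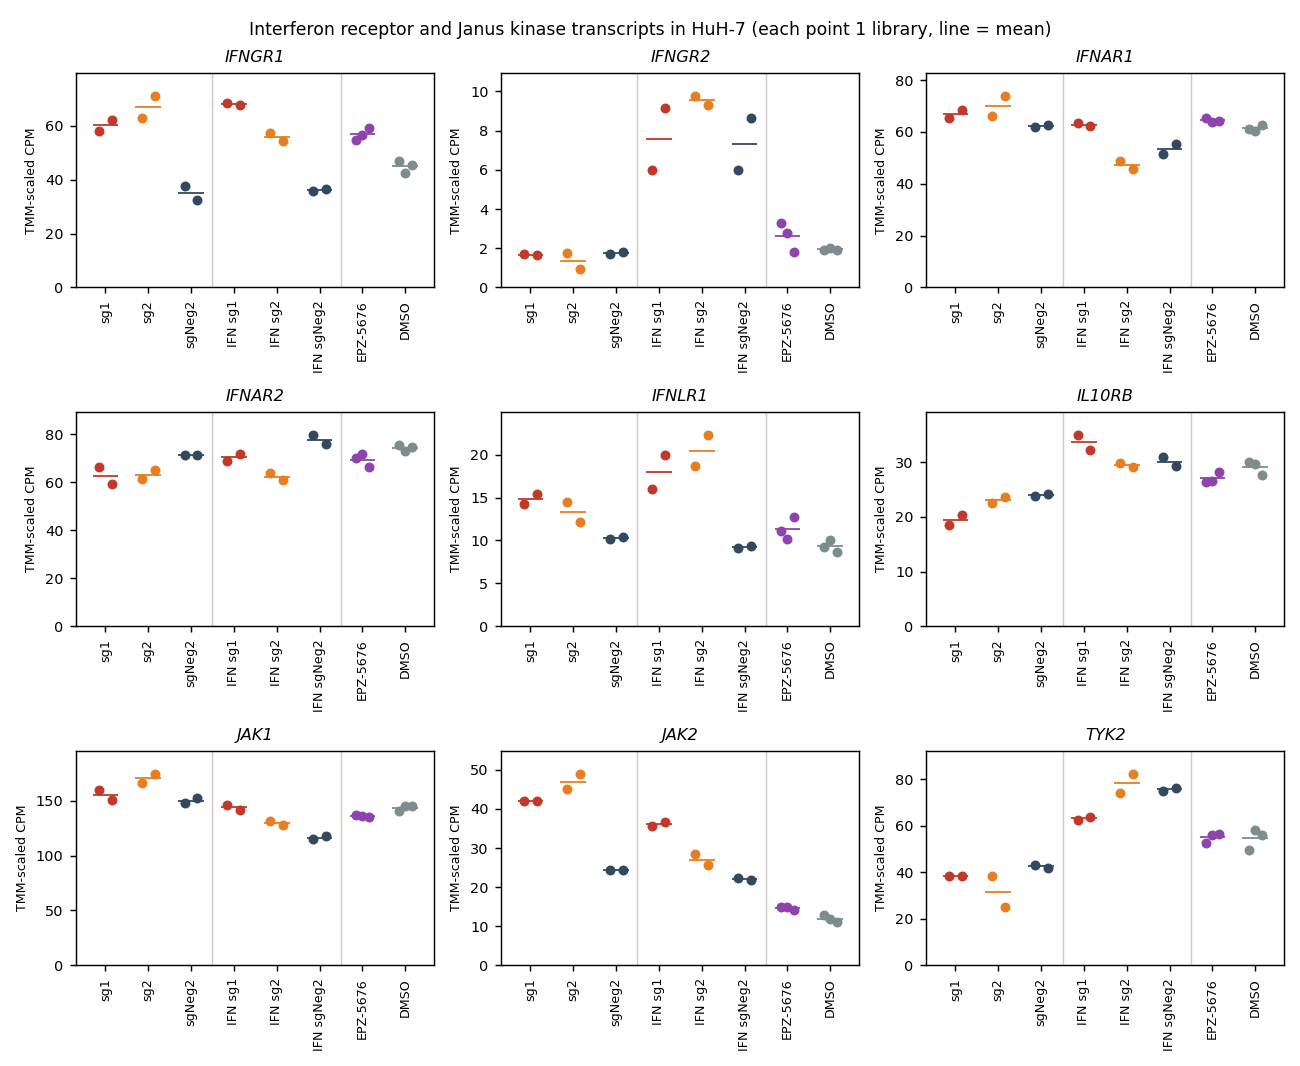
Levels of the 9 human transcripts in HuH-7, in TMM-scaled CPM (y axis, from 0), by guide, interferon and drug (x axis), with each point 1 library and each line the mean of its group. IFNGR1, IFNLR1 and JAK2 lie higher in sg1, sg2 and EPZ-5676 than in their controls, and IFNGR2 is high in the IFN libraries.

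Loss of DOT1L in HuH-7 was tested to see whether transcripts of the receptors and kinases change. Only RNA was read, so amounts of receptor protein are not known. Without IFN, 3 of 9 members rose in knockout cells and none fell, against 11.3% of 16448 genes called in that comparison at an adjusted p below 0.05 (edgeR quasi-likelihood test, Benjamini-Hochberg). With IFN the count was also 3 of 9, none lower, against 12.4% of all genes. The same genes, IFNGR1, IFNLR1 and JAK2, rose in both. The median log2 change of the members was 0.12 without IFN and 0.22 with IFN, and that of all genes 0.00295 and -0.06.

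IFNGR1, the ligand-binding chain for interferon-gamma, had 58.2 and 62.2 CPM with sg1 and 62.8 and 71.0 CPM with sg2, against 37.8 and 32.6 CPM with sgNeg2. With IFN it had 68.6 and 67.6 CPM with sg1 and 57.2 and 54.3 CPM with sg2, against 35.6 and 36.6 CPM with sgNeg2. Every edited library was above every control library in both states. The log2 change was 0.85 ± 0.12 without IFN (SE; adjusted p = 0.000446), or 1.81-fold, and 0.78 ± 0.12 with IFN (adjusted p = 0.000539), or 1.72-fold. IFNGR2, its partner, had 1.68 and 1.67 CPM with sg1 and 1.73 and 0.930 CPM with sg2, against 1.72 and 1.79 CPM with sgNeg2. These groups overlapped, and the change of -0.22 ± 0.30 was not distinguishable from 0 at 20 to 42 counts a library. With IFN it changed by 0.22 ± 0.23 (adjusted p = 0.606). The ratio of IFNGR2 to IFNGR1 counts was 0.0241 in knockout and 0.0503 in sgNeg2 cells, and with IFN 0.141 in knockout and 0.202 in sgNeg2 cells.

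IFNLR1, the chain that makes a cell responsive to interferon-lambda, had 14.2 and 15.5 CPM with sg1 and 14.5 and 12.2 CPM with sg2, against 10.1 and 10.3 CPM with sgNeg2. With IFN the values were 16.04 and 19.99 CPM with sg1 and 18.7 and 22.3 CPM with sg2, against 9.13 and 9.31 CPM with sgNeg2. Groups did not overlap in either state. The log2 change was 0.46 ± 0.14 without IFN (adjusted p = 0.0473) and 1.06 ± 0.14 with IFN (adjusted p = 0.000165). The call without IFN was at the threshold. Leaving out 1 library gave changes of 0.37 to 0.53, and the call was lost without either sgNeg2 library (0.45 and 0.43), either sg1 library (0.46 and 0.37) or sg2 replicate 1 (0.45). It was also lost with RLE scaling (adjusted p = 0.0616) and with no filter (adjusted p = 0.0562), but DESeq2 kept it (0.0362). The shared chain IL10RB had 18.5 to 23.7 CPM in knockout and 23.8 to 24.2 CPM in sgNeg2 cells, a change of -0.17 ± 0.11 that did not pass although the groups did not overlap. With IFN it had 29.1 to 35.0 CPM in knockout and 29.3 to 31.0 CPM in sgNeg2 cells.

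JAK2, the kinase held by IFNGR2 and by several cytokine receptors, had 42.03 and 41.97 CPM with sg1 and 45.1 and 49.0 CPM with sg2, against 24.4 and 24.3 CPM with sgNeg2. With IFN it had 35.7 and 36.7 CPM with sg1 and 28.3 and 25.6 CPM with sg2, against 22.3 and 21.9 CPM with sgNeg2. All edited libraries were again above the controls, with sg2 nearest to them under IFN. The log2 change was 0.87 ± 0.14 without IFN (adjusted p = 0.0014) and 0.51 ± 0.14 with IFN (adjusted p = 0.0235). The second call was lost without IFN sgNeg2 replicate 1 (0.53, adjusted p = 0.137) or replicate 2 (0.50, adjusted p = 0.167), and when only the 2 compared groups were fitted (0.58, adjusted p = 0.0951).

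With guides pooled, the chains for type I interferon and the other 2 kinases did not pass. IFNAR1 changed by 0.14 ± 0.12 without IFN and 0.04 ± 0.12 with IFN. IFNAR2 changed by -0.18 ± 0.08 (adjusted p = 0.185) and -0.23 ± 0.08 (adjusted p = 0.0881), with edited libraries below the controls in both states, at 59.2 to 66.2 CPM in knockout and 71.3 to 71.4 CPM in sgNeg2 cells without IFN. JAK1 changed by 0.12 ± 0.08 without IFN and 0.23 ± 0.08 with IFN (adjusted p = 0.0700). DESeq2 called the second of these (adjusted p = 0.019), as did the fit without IFN sg2 replicate 2 (0.27, adjusted p = 0.0343). TYK2 changed by -0.28 ± 0.16 and -0.10 ± 0.15. The groups did not overlap without IFN, where its 25.03 CPM in 1 sg2 library stood below the 38.2 CPM of the other 3 edited libraries.

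The guides differed from each other within the IFN-treated knockout cells. DOT1L was at 42.5 and 46.5 CPM with sg1 and at 66.8 and 66.7 CPM with sg2. In the same libraries sg1 was above sg2 for IFNGR1 and JAK2 (above), for IFNAR1 at 63.4 and 62.1 against 49.0 and 45.7 CPM, and for IL10RB at 35.0 and 32.3 against 29.9 and 29.1 CPM. It was below sg2 for TYK2, at 62.6 and 63.8 against 74.2 and 82.3 CPM. With each guide fitted alone against sgNeg2, JAK2 changed by 0.71 with sg1 and 0.29 with sg2 under IFN, IFNGR1 by 0.92 and 0.63, and IFNLR1 by 0.97 and 1.15. Without IFN, the call of IFNLR1 held with sg1 alone (0.54) and not with sg2 alone (0.39, adjusted p = 0.0870). Members not called with guides pooled were called in some of these fits. Under IFN, sg1 alone called IFNAR1 (0.23), IFNAR2 (-0.14), JAK1 (0.31) and TYK2 (-0.26). Of these, only IFNAR2 was also called with sg2 alone (-0.32). Without IFN, sg1 alone called IFNAR2 (-0.19) and IL10RB (-0.30), and sg2 alone called neither. The guides were not tested against each other.

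EPZ-5676 was compared with DMSO within the drug set. Here 3 members rose and 2 fell, against 33.7% of 15023 genes called. The risen ones were again IFNGR1, JAK2 and IFNLR1. Among 14868 genes tested in all 3 HuH-7 comparisons, 3.26% were called higher in each. IFNGR1 had 54.8, 56.5 and 59.0 CPM with EPZ-5676 against 47.0, 42.5 and 45.6 CPM with DMSO, with no overlap and a log2 change of 0.33 ± 0.04 (adjusted p = 5.1e-10). JAK2 had 14.8, 14.9 and 14.1 CPM with EPZ-5676 against 12.8, 11.7 and 11.2 CPM with DMSO, also without overlap, and changed by 0.30 ± 0.08 (adjusted p = 0.00176). IFNLR1 had 11.1, 10.2 and 12.8 CPM with EPZ-5676 against 9.24, 10.0 and 8.68 CPM with DMSO. Its lowest treated library lay just above the highest control, and its change was 0.29 ± 0.09 (adjusted p = 0.0114). Each of these changes was smaller in value than in knockout cells. The sizes were not tested against each other, since the sets were scaled apart. The call of IFNLR1 was lost without EPZ-5676 replicate 3 (0.20, adjusted p = 0.171) or DMSO replicate 3 (0.24, adjusted p = 0.0830).

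The 2 that fell with EPZ-5676 did so by little. IFNAR2 had 66.5 to 71.8 CPM with EPZ-5676 and 73.0 to 75.5 CPM with DMSO (-0.10 ± 0.03, adjusted p = 0.0149), and JAK1 135 to 137 CPM with EPZ-5676 and 140 to 145 CPM with DMSO (-0.08 ± 0.03, adjusted p = 0.012). The first call was lost without EPZ-5676 replicate 3 (-0.07), DMSO replicate 1 (-0.09) or DMSO replicate 3 (-0.10), and the second without EPZ-5676 replicate 3 (-0.07). With offsets for GC content both calls were lost, at -0.07 for IFNAR2 (adjusted p = 0.0709) and -0.06 for JAK1 (adjusted p = 0.0770). IFNGR2 had 3.28, 2.76 and 1.79 CPM with EPZ-5676 against 1.92, 2.01 and 1.91 CPM with DMSO, so the groups overlapped (0.42 ± 0.21, adjusted p = 0.107). Without EPZ-5676 replicate 3 its change was 0.63 (adjusted p = 0.0197). TYK2 changed by 0.01 ± 0.05.

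**Figure D2:**
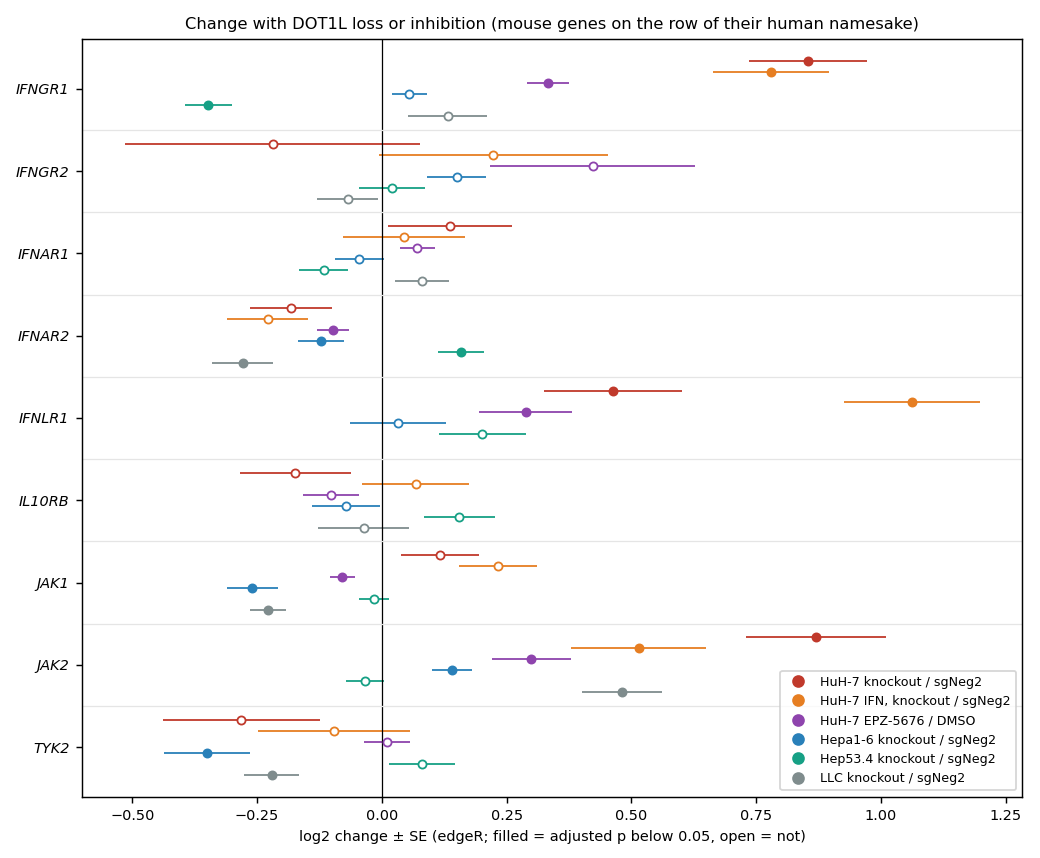
Log2 change with DOT1L knockout or EPZ-5676 against its control (x axis, ± SE) for each gene (rows), in the 6 settings (colours); filled points passed an adjusted p of 0.05. IFNGR1, IFNLR1 and JAK2 are to the right of 0 in all 3 HuH-7 comparisons, while Ifngr1 in Hep53.4 is at -0.35 and Ifnlr1 was not tested in LLC.

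Markers of other cell types moved in the same HuH-7 comparisons. The summed level of 13 leukocyte markers was 196 to 230 CPM in knockout and 113 to 118 CPM in sgNeg2 cells, 398 to 433 CPM in knockout and 256 to 262 CPM in sgNeg2 cells with IFN, and 275 to 279 CPM with EPZ-5676 and 176 to 182 CPM with DMSO, where 11 were listed. Of the 9 tested, 3 rose and 0 fell in knockout cells in either state. With EPZ-5676 5 of 9 tested rose and 0 fell. The sum was led by LYZ, at 132 CPM in knockout and 44.5 CPM in sgNeg2 cells. In each condition of the guide set 2 of the 13, PTPRC and TYROBP, were at 0 counts in all libraries, while 5 averaged at least 1 CPM. The sum of 15 hepatocyte markers was 14311 to 16444 CPM in knockout and 17588 to 17686 CPM in sgNeg2 cells, and 3 of them rose and 9 fell. With IFN that sum was 9810 to 10379 CPM in knockout and 10934 to 11077 CPM in sgNeg2 cells, with 5 higher and 3 lower, and it was 16774 to 16854 CPM with EPZ-5676 and 18905 to 19024 CPM with DMSO, with 3 higher and 9 lower. Fibroblast markers summed to 176 to 187 CPM in knockout and 193 to 195 CPM in sgNeg2 cells, 148 to 155 CPM in knockout and 135 to 138 CPM in sgNeg2 cells with IFN, and 162 to 166 CPM with EPZ-5676 and 149 to 156 CPM with DMSO. Of the 6 tested in the guide set, 3 rose and 1 fell without IFN, and 4 rose and 1 fell with IFN. Endothelial markers summed to 16.1 to 18.4 CPM in knockout and 8.96 to 9.67 CPM in sgNeg2 cells, and to 6.87 to 9.81 CPM in knockout and 3.19 to 4.51 CPM in sgNeg2 cells with IFN, where 1 of 3 rose in either state. These counts stand against 11.3% of all genes called without IFN, 12.4% with IFN and 33.7% with EPZ-5676. The part of all these markers in the changes of the members was not tested. In bulk RNA, fewer cells of a type and less RNA per cell cannot be told apart.

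The response of the members to IFN was read in both genotypes. In sgNeg2 cells 3 members were higher with IFN and 1 lower, against 67.8% of 16448 genes called, and in knockout cells 4 were higher and 3 lower, against 78.6%. These shares of called genes mean that a call says little about a member here. IFN-treated libraries differed from untreated ones in depth and in kind. Histone transcripts made up 0.0329 to 0.0472% of counts with IFN and 0.827 to 1.00% without it, and small nuclear RNAs 0.00885 to 0.0106% with IFN and 1.88 to 3.42% without it. The drug libraries, with 0.0300 to 0.0344% histone counts, were like the IFN libraries in this. Interferon and library kind cannot be told apart in the guide set. Each member is therefore also given for IFN-treated sgNeg2 cells against the DMSO libraries, a set of files with its own gene list. That comparison has limits too, since 10481 of 14898 genes were called. Its log2 changes also followed the GC content of transcripts (Spearman correlation 0.501 across genes), and no offsets for GC content were applied to it.

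IFNGR2 had the largest change. In knockout cells it had 5.97 to 9.76 CPM with IFN and 0.930 to 1.73 CPM without it, a log2 change of 2.501 ± 0.218 (adjusted p = 1.72e-07). In sgNeg2 cells it had 5.98 and 8.66 CPM with IFN against 1.72 and 1.79 CPM without it, a log2 change of 2.06 ± 0.30 (adjusted p = 4.71e-05). The groups were far apart in both genotypes. Against DMSO it was 6.72 CPM with IFN and 1.88 CPM with DMSO, a log2 change of 1.84 ± 0.18. TYK2 was higher with IFN as well, by 1.02 ± 0.13 in knockout and 0.83 ± 0.18 in sgNeg2 cells. Against DMSO its difference was 0.40 ± 0.05. JAK1 was lower, with log2 changes of -0.25 ± 0.06 in knockout and -0.37 ± 0.09 in sgNeg2 cells, and -0.37 ± 0.03 against DMSO. With the offsets for GC content described below, the JAK1 change was 0.0155 in knockout (adjusted p = 0.725) and -0.19 in sgNeg2 cells, and that of TYK2 was 0.40 in knockout and 0.35 in sgNeg2 cells. IFNGR2 stayed at 2.22 in knockout and 1.83 in sgNeg2 cells.

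For the other members the value moved with the control or with the offsets for GC content. IL10RB was higher by 0.57 ± 0.09 in knockout and 0.33 ± 0.13 in sgNeg2 cells, but differed by -0.02 ± 0.06 from DMSO. The sgNeg2 call was lost without any 1 of the 4 libraries compared, at changes of 0.28 to 0.37, with RLE scaling (adjusted p = 0.0644) and with DESeq2 (adjusted p = 0.0613). JAK2 was lower with IFN in knockout cells (-0.49 ± 0.11), differed by -0.14 ± 0.16 in sgNeg2 cells, and was higher than DMSO by 0.83 ± 0.09, at 20.3 CPM with IFN and 11.4 CPM with DMSO. JAK2 also differed between the 2 control sets, since DMSO libraries had 11.2 to 12.8 CPM and untreated sgNeg2 libraries 24.3 to 24.4 CPM on their own scales. IFNGR1 differed by -0.04 ± 0.09 in knockout and 0.04 ± 0.13 in sgNeg2 cells, and by -0.39 ± 0.05 against DMSO. IFNAR1 was lower in knockout cells (-0.31 ± 0.10) and against DMSO (-0.27 ± 0.05), with -0.22 ± 0.14 in sgNeg2 cells (adjusted p = 0.182). IFNAR2 differed by 0.08 ± 0.07 in knockout and 0.13 ± 0.10 in sgNeg2 cells, and by -0.00339 ± 0.0426 against DMSO. With the offsets JAK2 was at 0.087 in knockout (adjusted p = 0.153) and 0.29 in sgNeg2 cells (adjusted p = 0.00356), so the knockout call was lost and the sign turned in both. IFNAR1 was at 0.11 in knockout (adjusted p = 0.0740) and 0.08 in sgNeg2 cells, also with the other sign. IFNGR1 was called higher, by 0.49 in knockout and 0.42 in sgNeg2 cells, as was IFNAR2, by 0.30 in knockout and 0.27 in sgNeg2 cells. IL10RB was at 1.122 in knockout and 0.73 in sgNeg2 cells.

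The interaction, which asks whether the IFN response differs between genotypes, gave 0 of 9 members, against 0.505% of 16448 genes. DESeq2 also gave 0, and 1 member, IFNLR1, had an unadjusted p below 0.05. IFNLR1 was 0.45 ± 0.11 higher with IFN in knockout cells and differed by -0.15 ± 0.16 in sgNeg2 cells, a difference of 0.60 ± 0.19 (edgeR adjusted p = 0.192, DESeq2 adjusted p = 0.0592). IFN-treated sgNeg2 cells differed from DMSO by -0.08 ± 0.12 in IFNLR1. The interval of the interaction was -0.39 to 0.24 for IFNGR1 and -0.73 to 0.02 for JAK2. Log2 changes of the interaction also followed the GC content of transcripts across genes (Spearman correlation 0.331).

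**Figure D3:**
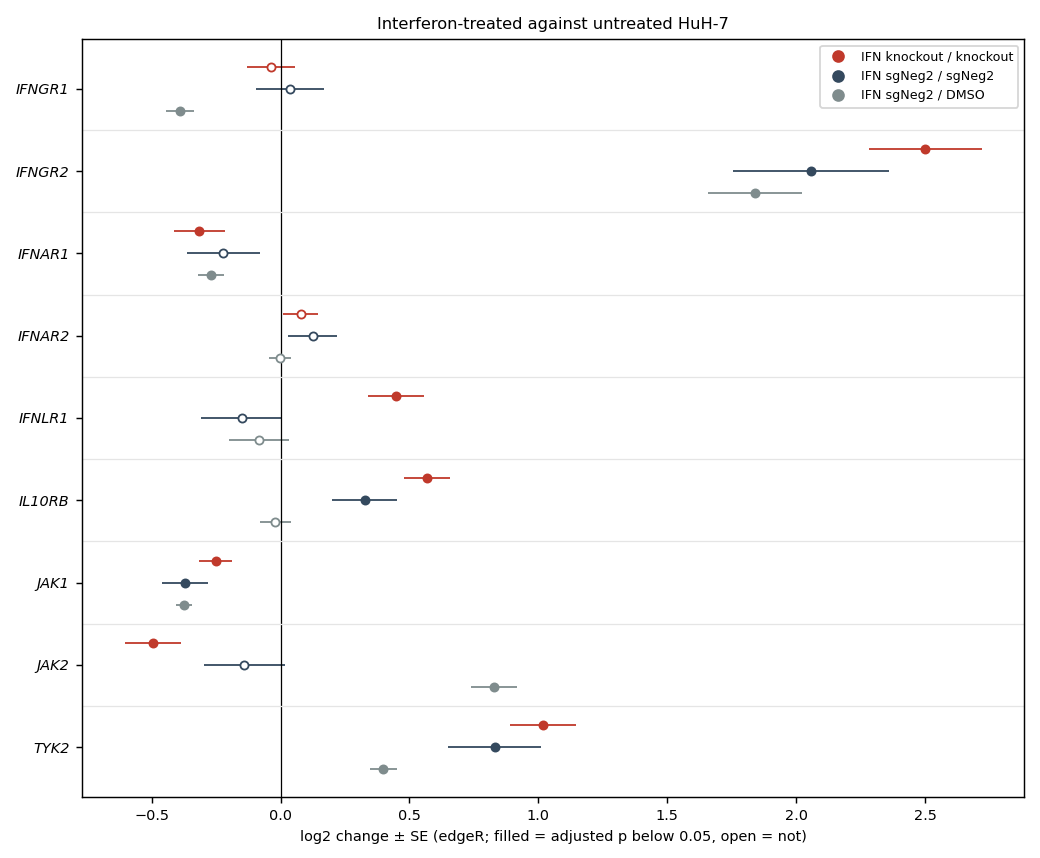
Log2 change with IFN (x axis, ± SE) for each member (rows) in knockout cells, in sgNeg2 cells, and for IFN-treated sgNeg2 cells against DMSO (colours); filled points passed an adjusted p of 0.05. IFNGR2 lies between 1.84 and 2.501 in all 3, while JAK2 and IL10RB change side or size with the control.

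Changes followed the base composition of transcripts in some comparisons. The Spearman correlation of log2 change with GC content, across genes and as a description, was -0.274 for knockout without IFN and 0.0635 with IFN. It was 0.286 and 0.385 for IFN in sgNeg2 and knockout cells, and 0.331 for the interaction, each on 15262 genes. For EPZ-5676 it was 0.0240 (14036 genes). JAK2 (39.2% GC), IL10RB (39.8%) and IFNGR1 (40.2%) are at the low end, and TYK2 (61.3%), IFNGR2 (55.02%) and IFNLR1 (54.3%) at the high end. With offsets for GC content, an alternative chosen after seeing the data, the knockout changes without IFN were 0.72 for IFNGR1, 0.73 for JAK2 and 0.46 for IFNLR1, and all 3 calls held. With IFN they were 0.79, 0.53 and 1.02. The offsets also brought calls on IFNAR2 (-0.28), IL10RB (-0.30) and TYK2 (-0.18) without IFN, on IFNAR2 (-0.25) and JAK1 (0.22) with IFN, and on the interaction of IFNLR1 (0.56, adjusted p = 0.0223) and IL10RB (0.39, adjusted p = 0.0389).

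**Figure D4:**
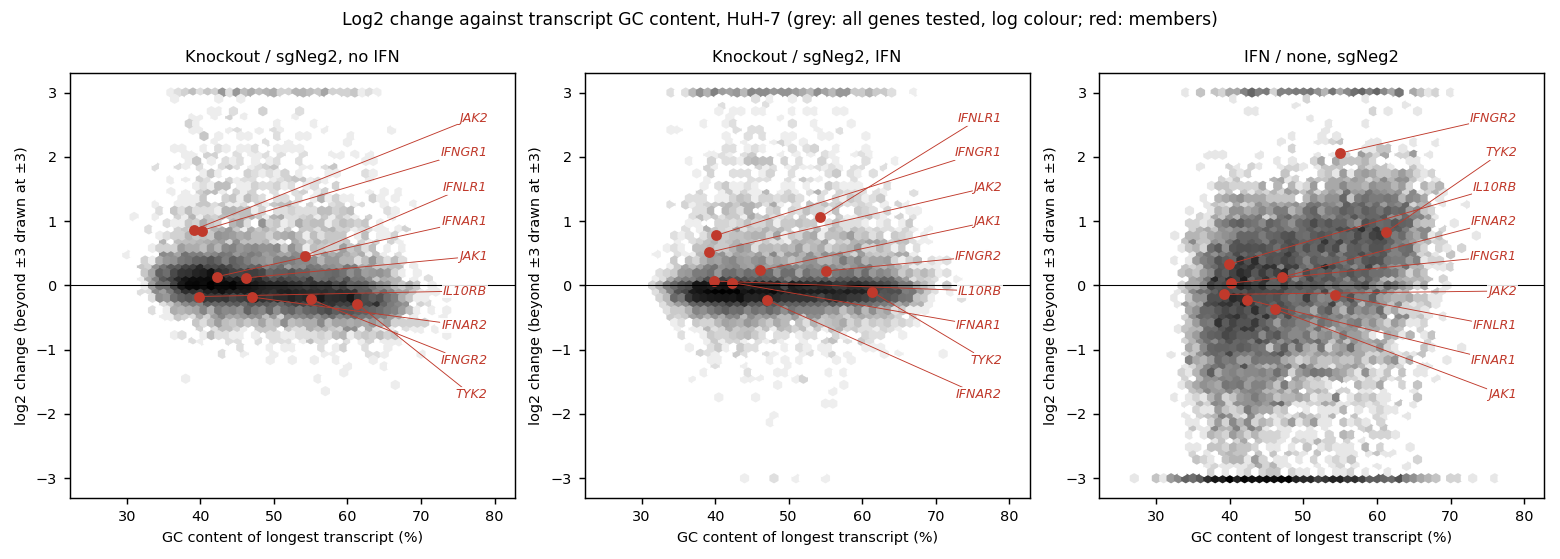
Log2 change (y axis, limited to ±3) against GC content of the longest transcript (x axis, %) in 3 HuH-7 comparisons; grey hexagons count all genes tested on a log colour scale and red points are the members. JAK2, IL10RB and IFNGR1 lie at about 40% GC, where JAK2 and IFNGR1 stand above most genes of like GC content in both knockout comparisons.

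Transcript levels of the receptors and kinases differed between the mouse lines. In sgNeg2 cells 6 of 9 members were higher and 2 lower in Hepa1-6 than in Hep53.4, against 76.2% of 14195 genes called. In LLC 2 were higher and 7 lower than in Hepa1-6, against 81.0%, and 3 higher and 6 lower than in Hep53.4, against 78.1%. Since most genes differed between lines, the sizes are given rather than the counts. Levels of different mouse genes were not compared, as lengths were not used here.

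Ifngr1 spanned a wide range. It had 15.04 and 13.5 CPM in LLC, 199.0 and 199.7 CPM in Hepa1-6, and 56.8 and 57.7 CPM in Hep53.4, and no 2 lines overlapped. LLC was lower than Hepa1-6 (log2 difference -3.80 ± 0.06) and than Hep53.4 (-2.004 ± 0.057), and Hepa1-6 was higher than Hep53.4 by 1.80 ± 0.05. Ifngr2 had 30.2 and 30.2 CPM in LLC, 44.0 and 46.1 CPM in Hepa1-6, and 22.4 and 22.6 CPM in Hep53.4. The ratio of Ifngr2 to Ifngr1 counts was thus 2.12 in LLC, 0.226 in Hepa1-6 and 0.393 in Hep53.4.

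Ifnlr1 was close to absent in LLC. It had 1 count over the 2 sgNeg2 libraries and 3 counts over the 4 knockout libraries, against 17.1 and 19.7 CPM in Hepa1-6 and 13.7 and 14.05 CPM in Hep53.4 sgNeg2 cells. The level in sgNeg2 LLC was 0.000478 of that in Hepa1-6 (95% counting interval 1.21e-05 to 0.00266) and 0.000637 of that in Hep53.4 (1.61e-05 to 0.00355). Hepa1-6 was higher than Hep53.4 by 0.41 ± 0.13 (adjusted p = 0.00577), no longer called without Hepa1-6 sgNeg2 replicate 1 (0.30, adjusted p = 0.0941). Il10rb was present in all lines, at 9.20 and 9.13 CPM in LLC, 32.2 and 34.6 CPM in Hepa1-6, and 19.9 and 18.5 CPM in Hep53.4. These intervals hold counting error alone, as the labels name no molecular identifiers and PCR copies are not separate molecules.

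Ifnar1 had 47.3 and 42.6 CPM in LLC, 72.4 and 66.6 CPM in Hepa1-6, and 52.6 and 56.2 CPM in Hep53.4. Ifnar2 had 40.4 and 42.1 CPM in LLC, 84.3 and 89.0 CPM in Hepa1-6, and 50.4 and 52.0 CPM in Hep53.4. Both were highest in Hepa1-6 and lowest in LLC, with no overlap, and the largest difference was -1.07 ± 0.06 (Ifnar2, LLC against Hepa1-6).

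The kinases ran in other orders. Jak1 had 284 and 288 CPM in LLC, 67.5 and 64.7 CPM in Hepa1-6, and 199 and 196 CPM in Hep53.4. Jak2 had 12.8 and 13.0 CPM in LLC, 100.4 and 97.2 CPM in Hepa1-6, and 198 and 203 CPM in Hep53.4, which makes LLC lower than Hep53.4 (-3.96 ± 0.07). Tyk2 had 47.9 and 48.8 CPM in LLC, 26.1 and 22.0 CPM in Hepa1-6, and 24.7 and 25.03 CPM in Hep53.4, where the 2 liver lines overlapped (-0.05 ± 0.08). LLC thus had the most Jak1 and Tyk2 and the least Jak2. The ratio of Jak2 to Jak1 counts was 0.0450 in LLC, 1.495 in Hepa1-6 and 1.01 in Hep53.4.

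**Figure D5:**
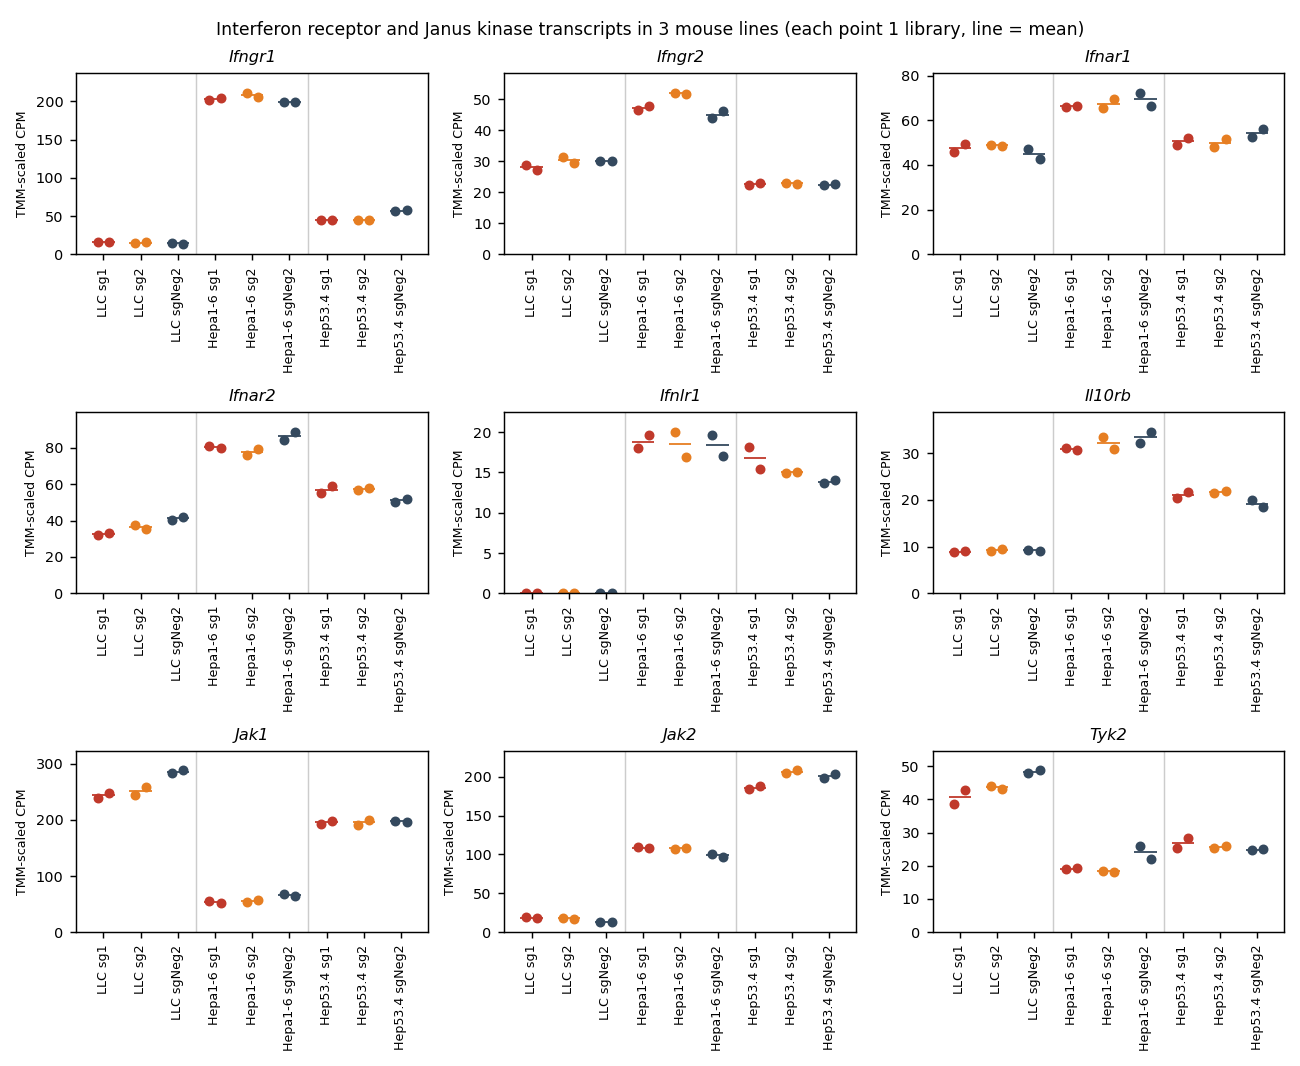
Levels of the 9 mouse transcripts in TMM-scaled CPM (y axis, from 0) by line and guide (x axis); each point is 1 library and each line the mean of its group. LLC lies near 0 for Ifnlr1 and lowest for Ifngr1 and Jak2.

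Loss of Dot1l was then read within each mouse line. In Hepa1-6 1 member rose and 3 fell, against 32.8% of 12493 genes called. In Hep53.4 1 rose and 1 fell, against 39.2% of 12227. In LLC 1 rose and 3 fell of 8 tested, against 33.5% of 12225, Ifnlr1 being too low to test. As shares of the members tested these are 44.4% in Hepa1-6, 22.2% in Hep53.4 and 50% in LLC, on 4, 2 and 4 genes. The median log2 change of the members was -0.05 in Hepa1-6, 0.02 in Hep53.4 and -0.05 in LLC.

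Jak2 rose in 2 of the 3 lines. In LLC it had 19.7 and 17.8 CPM with sg1 and 18.8 and 16.7 CPM with sg2, against 12.8 and 13.0 CPM with sgNeg2, and rose by 0.48 ± 0.08 (adjusted p = 0.000118). In Hepa1-6 it had 107 to 109 CPM in knockout against 100.4 and 97.2 CPM in sgNeg2 cells (0.14 ± 0.04, adjusted p = 0.00959), no longer called without sgNeg2 replicate 2 (0.12, adjusted p = 0.129). Neither line had an overlap. In Hep53.4 it had 184 and 188 CPM with sg1 and 205 and 208 CPM with sg2 against 198 and 203 CPM with sgNeg2, so that the guides lay on either side of the controls (-0.03 ± 0.04). With sg1 alone it was called lower there (-0.11).

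Ifngr1, which rose in HuH-7, fell in Hep53.4. It had 44.3 to 45.3 CPM in knockout against 56.8 and 57.7 CPM in sgNeg2 cells, a log2 change of -0.35 ± 0.05 (adjusted p = 4.6e-07). In Hepa1-6 it changed by 0.06 ± 0.04 and in LLC by 0.13 ± 0.08. The joint fit of all mouse lines called the LLC change (0.16, adjusted p = 0.0298). Ifngr2 changed by 0.15 ± 0.06 in Hepa1-6 (adjusted p = 0.0528), which passed without sg1 replicate 1 (0.18, adjusted p = 0.0246) or sg1 replicate 2 (0.17, adjusted p = 0.0457). It changed by 0.02 ± 0.07 in Hep53.4 and by -0.07 ± 0.06 in LLC.

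Ifnar2 fell in 2 lines and rose in the third. In LLC it had 31.8 to 37.7 CPM in knockout and 40.4 to 42.1 CPM in sgNeg2 cells (-0.28 ± 0.06, adjusted p = 0.00158). In Hep53.4 it had 55.2 to 59.0 CPM in knockout and 50.4 to 52.0 CPM in sgNeg2 cells (0.16 ± 0.05, adjusted p = 0.00713), no longer called without sgNeg2 replicate 1 (0.14, adjusted p = 0.111). In Hepa1-6 it had 75.9 to 81.1 CPM in knockout and 84.3 to 89.0 CPM in sgNeg2 cells (-0.12 ± 0.05, adjusted p = 0.0465). That call was lost without sgNeg2 replicate 1 (-0.16) or 2 (-0.08), sg1 replicate 2 (-0.13), or sg2 replicate 1 (-0.10) or 2 (-0.12), and with DESeq2 (adjusted p = 0.0628). Ifnar1 did not pass in any line, at -0.05 ± 0.05 in Hepa1-6, -0.12 ± 0.05 in Hep53.4 (adjusted p = 0.0593; 0.0312 without sg2 replicate 2) and 0.08 ± 0.05 in LLC.

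Jak1 and Tyk2 fell in Hepa1-6 and LLC. Jak1 had 52.6 to 57.1 CPM in knockout and 64.7 to 67.5 CPM in sgNeg2 Hepa1-6 cells (-0.26 ± 0.05, adjusted p = 0.000359), and 239 to 259 CPM in knockout and 284 to 288 CPM in sgNeg2 LLC cells (-0.23 ± 0.04, adjusted p = 5.16e-05). Tyk2 had 18.3 to 19.2 CPM in knockout and 22.0 to 26.1 CPM in sgNeg2 Hepa1-6 cells (-0.35 ± 0.09, adjusted p = 0.00307), and lost this call without sgNeg2 replicate 1 (-0.22, adjusted p = 0.176). In LLC it changed by -0.22 ± 0.06 (adjusted p = 0.00403). In Hep53.4 Jak1 changed by -0.02 ± 0.03 and Tyk2 by 0.08 ± 0.07. Ifnlr1 changed by 0.03 ± 0.10 in Hepa1-6 and 0.20 ± 0.09 in Hep53.4 (adjusted p = 0.0679), where it passed without sg2 replicate 1 (0.23, adjusted p = 0.0474) or sg2 replicate 2 (0.22, adjusted p = 0.0389). Il10rb, its partner, changed by -0.07 ± 0.07 in Hepa1-6, 0.16 ± 0.07 in Hep53.4 (adjusted p = 0.0867) and -0.04 ± 0.09 in LLC.

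Marker sums also moved with knockout in mouse lines. The hepatocyte sum was 12313 to 12791 CPM in knockout and 17501 to 17652 CPM in sgNeg2 Hepa1-6 cells, where 8 of 13 markers fell and 0 rose, and 999 to 1072 CPM in knockout and 1115 to 1128 CPM in sgNeg2 Hep53.4 cells, where 1 of 9 rose and 3 fell. The fibroblast sum was 2293 to 2428 CPM in knockout and 2226 to 2236 CPM in sgNeg2 Hepa1-6 cells (1 of 8 rose, 5 fell), 5541 to 5811 CPM in knockout and 4123 to 4127 CPM in sgNeg2 Hep53.4 cells (1 of 4 rose, 1 fell), and 4873 to 5208 CPM in knockout and 5618 to 5630 CPM in sgNeg2 LLC cells (5 of 8 rose, 1 fell). The endothelial sum was 29.3 to 33.6 CPM in knockout and 50.7 to 51.9 CPM in sgNeg2 Hep53.4 cells. The leukocyte sum was 123 to 133 CPM in knockout and 134 to 140 CPM in sgNeg2 Hepa1-6 cells, 60.9 to 67.7 CPM in knockout and 59.5 to 63.3 CPM in sgNeg2 Hep53.4 cells, and 15.96 to 17.1 CPM in knockout and 17.3 to 17.7 CPM in sgNeg2 LLC cells. The counts of markers that rose or fell stand against 32.8% of all genes called in Hepa1-6, 39.2% in Hep53.4 and 33.5% in LLC. The part of these markers in the changes of the members was not tested.

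Whether these effects differ between lines was tested in a joint fit. Hepa1-6 and Hep53.4 differed for 4 of 9 members, 1 with the higher value in Hepa1-6 and 3 with the lower, against 24.7% of 14195 genes. Hepa1-6 and LLC differed for 1, against 24.6%, and Hep53.4 and LLC for 6, against 29.2%. The change of Ifngr1 in Hepa1-6 minus that in Hep53.4 was 0.39 ± 0.06, and that in Hep53.4 minus that in LLC was -0.50 ± 0.07. Jak2 differed by -0.53 ± 0.08 between Hep53.4 and LLC and by -0.37 ± 0.08 between Hepa1-6 and LLC. Ifnar2 differed by -0.29 ± 0.08 between Hepa1-6 and Hep53.4 and by 0.42 ± 0.08 between Hep53.4 and LLC. These comparisons share lines, so they are not independent of each other. Between Hep53.4 and LLC, the call of Ifnar1 (-0.22) was lost without Hep53.4 sgNeg2 replicate 2 (-0.17), Hep53.4 sg2 replicate 1 (-0.20), LLC sgNeg2 replicate 2 (-0.15) or LLC sg1 replicate 2 (-0.21). That of Tyk2 (0.28) was lost without Hep53.4 sgNeg2 replicate 1 (0.26) or 2 (0.29), Hep53.4 sg1 replicate 2 (0.23), LLC sgNeg2 replicate 1 (0.29) or 2 (0.27), or LLC sg1 replicate 1 (0.24).

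Further genes of the pathway were read from lists chosen with earlier results of these data known. No reads fell on 7 interferon ligand genes in any HuH-7 guide library, while Ifnb1 had 38 counts over 4 knockout and 10 over 2 sgNeg2 libraries of Hepa1-6. Of 8 signal transducers, 1 rose and 2 fell in HuH-7 knockout without IFN. With IFN 1 rose and 1 fell, and with EPZ-5676 2 rose and 1 fell. The shares of all genes called in these comparisons were 11.3%, 12.4% and 33.7%, and the counts of the lists below stand against the same shares. STAT5B, which serves growth hormone, fell in all 3 (-0.31, -0.37 and -0.20).

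Of 20 negative regulators, 1 rose and 1 fell in HuH-7 knockout without IFN, 1 rose and 1 fell with IFN, and 3 rose and 5 fell with EPZ-5676. SOCS2, a feedback inhibitor of growth hormone signalling, rose in each, by 1.04 ± 0.15, 1.78 ± 0.17 and 0.71 ± 0.11. Of 34 other receptors that use Janus kinases, 24 were tested in the guide set. Among these 4 rose and 3 fell without IFN, and 7 rose and 0 fell with IFN, with medians of 0.38 and 0.25. With EPZ-5676 8 of 22 rose and 1 fell. IL22RA1, which pairs with IL10RB to bind interleukin-22, rose in all 3, by 1.06 ± 0.18, 1.46 ± 0.18 and 0.99 ± 0.18. Of 13 genes of receptor turnover 0 were called in knockout with or without IFN by edgeR and 0 by DESeq2, with 1 at an unadjusted p below 0.05 in each, and 7 fell with EPZ-5676. In mouse knockouts, 1 other receptor rose and 3 fell in Hepa1-6, 2 rose and 4 fell in Hep53.4, and 6 rose and 0 fell in LLC, against 32.8%, 39.2% and 33.5% of all genes called.

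With IFN, 6 of 8 transducers were higher and 1 lower in each genotype, where 78.6% of all genes were called in knockout and 67.8% in sgNeg2 cells. USP18, which binds IFNAR2 and dampens type I signalling, was higher by 1.65 ± 0.11 in knockout and 1.51 ± 0.15 in sgNeg2 cells. IL15RA, the interleukin-15 binding chain, was higher by 2.49 ± 0.11 in knockout cells.

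The genes whose levels were most like those of a member, by Pearson correlation of log2(CPM + 0.5), are given as a description. Over the 12 HuH-7 guide libraries these were NT5E for IFNGR1 (0.98), NAPG for IFNAR1 (0.98), OSBPL9 for IFNAR2 (0.93), ERLIN1 for IL10RB (0.98), EDARADD for JAK1 (0.98), LOXL2 for IFNLR1 (0.99), DDX60L for JAK2 (0.99), DDX28 for IFNGR2 (0.99) and CPSF1 for TYK2 (1.00), among 10936 genes. Over the 18 mouse libraries they were Dnajc5 for Ifngr1 (1.00), Sipa1 for Ifnar1 (0.98), Clpb for Ifnar2 (0.99), Pdk2 for Il10rb (1.00), Tcp1 for Jak1 (1.00), Ehbp1l1 for Tyk2 (0.99), Krt19 for Ifnlr1 (1.00), Stc1 for Jak2 (1.00) and Isg15 for Ifngr2 (0.99), among 9893 genes. The HuH-7 points share line and library kind, and the mouse points fall into 3 lines, so such values are high for many genes.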

How the data were processed

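RNA was measured in bulk. Each deposited file holds the authors' counts per gene symbol for 1 library, whole numbers with no normalization, as checked on the values. Per the submitters' processing notes, the builds were hg38 and mm10, and the tools DESeq2 1.36.0, SAMtools 1.9, HISAT2 2.2.1 and Trim Galore. Per the labels' protocols, total RNA went into a VAHTS Universal V6 kit. How reads were counted (program, annotation, strand) is not stated in the labels. Drug files list only genes with at least 1 count in each library. Lines with no symbol were dropped, 1721 in each Hepa1-6 sgNeg2 file and 1 in each Hep53.4 sgNeg2 file.

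Libraries were grouped by the labels, with guides pooled as knockout (4 libraries against 2). Counts were fitted in R 4.3.3 with edgeR 4.0.16 (filterByExpr with a minimum count of 10 and total of 15, TMM, robust quasi-likelihood F tests, Benjamini-Hochberg over all genes tested). The 12 HuH-7 guide libraries, the 6 drug libraries, the 6 of each mouse line, and the 18 mouse libraries for comparisons of lines were fitted apart. Calls were made below an adjusted p of 0.05. The ± after a log2 change is its SE, taken as the absolute change over the square root of the F statistic. Intervals of log2 changes are the change ± 1.96 SE, nominally 95%, and can be too narrow with so few libraries. Counting intervals are 95%. Levels are TMM-scaled CPM, and per kilobase values use the union of exons in GENCODE release 29. All named members were listed by the rule, pathway genes were the called ones with the largest change in a list, and Fgb, Ttr, Alb, LYZ, PTPRC, TYROBP, Sftpc, Sftpa1, Nkx2-1 and Ifnb1 were chosen after their values were seen. Some results on pathway genes are not reported here. Members and lists were chosen with earlier results of these data known. Tests were checked on simulated data. Alternatives were RLE scaling, no filter, DESeq2 1.42.0, each guide alone, smaller or joint fits, a replicate block, each library left out, DMSO as control for IFN and, added after seeing the data, GC content offsets (lowess, span 0.3). No 2 replicates agreed within sampling noise (chi-square per degree of freedom of 2.81 to 8.64, and 24.7 and 62.6 for untreated HuH-7 sg2 and Hepa1-6 sg1).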

Additional observations from a re-analysis of the deposited data

Results flagged for a closer look

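A single library stood apart from the other 3 in 4 of 44 groups of 4 knockout libraries that were examined, where chance gives about 1 in 20 groups. The measure is the gap to the nearest library divided by the range (Dixon). IFNGR2 in untreated HuH-7 knockout cells had 0.930 CPM in sg2 replicate 2 and 1.67 to 1.73 CPM in the others (0.920). TYK2 was low in the same library, at 25.03 CPM with 38.2 CPM in the others (1.00). IFNGR2 in IFN-treated knockout cells had 5.97 CPM in sg1 replicate 1 and 9.15 to 9.76 CPM in the others (0.840). Ifnlr1 in Hep53.4 knockout cells had 18.1 CPM in sg1 replicate 1 and 14.97 to 15.4 CPM in the others (0.855). None of these genes was called in the knockout comparison concerned.

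The effect of knockout differed between mouse lines for 11 pairs of member and comparison, by the test of the difference itself. Between Hepa1-6 and Hep53.4 it differed by 0.39 for Ifngr1, -0.29 for Ifnar2, -0.26 for Jak1 and -0.44 for Tyk2 on the log2 scale. Between Hepa1-6 and LLC it differed by -0.37 for Jak2. Between Hep53.4 and LLC it differed by -0.50 for Ifngr1, -0.22 for Ifnar1, 0.42 for Ifnar2, 0.19 for Jak1, -0.53 for Jak2 and 0.28 for Tyk2. The effect on Dot1l itself differed by -0.83 ± 0.13 between Hepa1-6 and Hep53.4, and its part in these differences was not tested.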

How the results depend on the processing

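Of 1742 member values under an alternative, 1606 kept direction and side of the threshold, 42 changed sign without being called in either fit, 49 lost the call, 37 gained it, and 8 that were called in at least 1 of the fits turned round. The 8 were, with GC content offsets, JAK2 with IFN in sgNeg2 cells (0.29) and, with IFN in knockout cells, IFNGR1 (0.49), IFNAR1 (0.11), JAK1 (0.0155) and JAK2 (0.087), and, with DMSO as control, IFNGR1 (-0.39), IL10RB (-0.0197) and JAK2 (0.83). Counts of called members moved with GC content offsets to 6 (3 up, 3 down) for HuH-7 knockout, 5 for knockout with IFN, 8 for IFN in sgNeg2 cells, 2 for the interaction and 3 for EPZ-5676. With sg1 alone they moved to 5 for HuH-7 knockout, 7 with IFN and 4 in Hep53.4. With 1 library left out they ranged from 3 to 5 for EPZ-5676, 2 to 5 in Hepa1-6 and 1 to 4 in Hep53.4. The cause was not tested. Over all genes, calls for knockout without IFN (1863) were 4684 with GC content offsets, 4940 with sg1 alone, 2899 with only the compared groups, and 564 or 632 without sgNeg2 replicate 1 or 2. Calls for knockout with IFN (2037) were 4796 with the offsets, 6465 with sg1 alone, 4109 with sg2 alone, 1000 with only the compared groups, and 978 or 960 without IFN sgNeg2 replicate 1 or 2. Those for the interaction (83) were 896 with the offsets, 400 with DESeq2, 53 with a replicate block and 19 to 176 with 1 library left out. Without sgNeg2 replicate 1, calls were 2381 in Hepa1-6 (4095) and 2519 in LLC (4097). Numbers were not taken to pair samples, since the labels do not say that they do. Residuals of libraries with the same number correlated between -0.0611 and 0.0605. In groups of 2 libraries the residuals mirror each other, so replicates 1 and 2 gave the same value. With a replicate block the count was 2 in HuH-7 knockout, where IFNLR1 lost its call (0.46, adjusted p = 0.0570), 3 with IFN and 3 in Hepa1-6, where Ifnar2 lost its call (adjusted p = 0.0571). Depth limits IFNGR2 in untreated HuH-7 and Ifnlr1 in LLC.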

Other observations

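JAK3, the remaining Janus kinase, is no member and was looked at after its values were seen. It had 0 to 7 counts a library in the HuH-7 guide set. Jak3 was plainly present in mouse lines, at 9.85 to 12.7 CPM in knockout and 8.995 to 10.1 CPM in sgNeg2 LLC cells, 15.4 to 17.4 CPM in knockout and 19.8 to 20.8 CPM in sgNeg2 Hepa1-6 cells, and 30.5 to 32.8 CPM in knockout and 32.8 to 34.6 CPM in sgNeg2 Hep53.4 cells.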
